A study of Mus musculus with 24 samples.

Results

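The MeRIP-seq libraries of the Mettl14 KO mouse embryonic stem (ES) cells were used to ask which genes and repeats still come down with an m6A antibody when the protein METTL14 is truncated. The members were 4 of the 24 libraries of the series, 2 m6A-IP libraries and the 2 input libraries that carry the same replicate numbers, and IP was compared with input over every gene and repeat subfamily in the deposited table. Mettl14 KO is clone A10, a single CRISPR-Cas9 clone made in WT26 ES cells, with a homozygous 4 bp deletion that shifts the reading frame to a premature stop. The other MeRIP-seq lines were its parent WT26, the Mettl3 KO (clone 2c4d, also single) and RBC, the control line of the Mettl3 KO, each with 2 inputs and 2 IPs. RNA-seq of the same 4 lines, 2 libraries each, made up the remaining 8 libraries. All lines grew in medium with serum replacement and LIF on gelatin. The RNA was nuclear RNA sheared by sonication, and 3 MeRIP reactions were combined for each replicate. Every group had n = 2, and both replicates of a knockout come from the same clone, so the p-values measure the spread between samples of a line, part of which may be technical.

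N6-methyladenosine (m6A) is the most abundant internal mark on mRNA. A nuclear complex deposits it while the RNA is being made: METTL3 is the catalytic subunit, METTL14 holds the RNA substrate and stabilises METTL3, and WTAP, VIRMA, ZC3H13, RBM15 and RBM15B place the complex. Marks lie mainly in long internal exons and near stop codons, in short motifs with GGAC as the best known form, and readers of the YTH family bind them. In ES cells the mark is known from transcripts of pluripotency factors, whose decay it speeds. In MeRIP-seq an antibody against m6A pulls down sheared RNA, and a gene counts as enriched when its share of the IP exceeds its share of the input. The counts are relative within a library, so the scaling sets the typical feature near 0 and a loss shared by all transcripts would not appear as a change. The EGFP RNA spike-in of the study was not analysed here.

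To show what such stretches look like in transcripts that came down in the Mettl14 KO, 1 window of 30 bases was taken from each of 6 enriched genes, which were chosen after their values were seen. Each is the window with the most GGAC motifs in the longest exon of the gene's longest transcript (GENCODE M21 transcripts, GRCm38, printed 5′ to 3′ on the transcript strand, GGAC in capitals).

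Tbcc, chr17:46891568-46891597, + strand, exon 1 of 1, coding sequence: gatcgacaaGGACttccaGGACtccggttt
Sox2, chr3:34651216-34651245, + strand, exon 1 of 1, coding sequence: ccaggccggGGACctccgGGACatgatcag
Klf2, chr8:72321003-72321032, + strand, exon 3 of 3, 3′ UTR: tattGGACcttaGGACagagccGGACaagt
Nodal, chr10:61425242-61425271, + strand, exon 3 of 3, 3′ UTR: aagaggGGACtggccatggtGGACtttaga
Bmp4, chr14:46384479-46384508, - strand, exon 4 of 4, coding sequence: ctGGACacctcatcacacgactactGGACa
Ythdf2, chr4:132186843-132186872, - strand, exon 5 of 5, 3′ UTR: GGACacgatgacctgcaagaaaattaGGAC

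The windows hold 2 or 3 GGAC each. Of 53543643 windows of 30 bases in 14793 protein-coding transcripts, 10.8% held at least 1 GGAC and 0.578% at least 2, without regard to enrichment. Each printed window is the best of a whole exon, so the share over all windows does not measure how unusual it is. The windows were picked for their motifs and describe sequence only, since the gene counts do not show where in a transcript the antibody bound.

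The 4 libraries held 20392406 and 9394163 counts (inputs 1 and 2) and 20796892 and 10828364 counts (IPs 1 and 2), within the range of 9394163 to 28441282 over the 16 MeRIP-seq libraries, so pair 2 rested on fewer counts. Input and IP of the same number moved together around their group means (r = 0.20 over 13662 features, described only). The Mettl14 transcript was present in the knockout, at 262 and 229 in the inputs and 182 and 104 in the IPs, against 246 and 282 in the WT26 inputs (counts scaled by size factors, called normalised counts from here on). A 4 bp deletion leaves most of the transcript in place, so this level does not check the label. The 7 ES cell markers, Pou5f1 to Utf1, were all detected, with a summed level of 10233 and 10837 normalised counts in the knockout inputs and 13324 and 12853 in those of WT26. The 7 fibroblast markers summed to 28.7 and 35.8, the 5 endoderm markers to 144 and 126, the 5 trophectoderm markers to 278 and 234, the 3 neural markers to 209.8 and 159.9 and the 3 mesoderm markers to 63.7 and 52.6, with the fibroblast marker Dcn at 0 in all 4 inputs of both lines.

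Enrichment in the IP remained widespread in the Mettl14 KO. A feature was called enriched where its adjusted p did not exceed 0.05 and its log2 fold change was over 1, and depleted by the mirrored rule (edgeR quasi-likelihood test on counts, Benjamini-Hochberg over 22621 features). By this rule 2692 features were enriched, 11.9% of those tested, and 2241 were depleted, 9.91%. The enriched features were 2683 genes and 9 repeat subfamilies, and the depleted ones 1768 genes and 473 subfamilies. Of 14799 protein-coding genes 2294 were enriched (15.5%) and 613 depleted (4.14%). Lists of protein-coding genes are therefore to be read beside these shares as well as those of all features. The enriched features had a median log2 fold change of 1.56 (quartiles 1.29 and 1.91), against 0.01 over all features tested. The direction was the same in both pairs for all 2692, and 1630 passed a log2 ratio of 1 in each pair. Pair 2 gave the larger ratio in 2527 of them, with a median of 1.95 against 1.11 in pair 1. Both IPs lay above both inputs in 2688 of the 2692, where in all 22621 features 15431 showed no overlap in either direction. The depleted features had a median of -1.68, with -1.27 in pair 1 and -2.22 in pair 2. Just outside the limit lay Rgs12 and Slc35e3 (log2 fold change 0.997 and 0.999), and just inside it Hint1 and Incenp (1.001 and 1.002).

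The calls leaned on pair 2. How the 2692 enriched features held their direction is a description only, since they were chosen with the same libraries. Leaving out IP 2 left 6 enriched and 55 depleted features, leaving out input 2 left 15 and 171, and leaving out input 1 left 119 and 421, whereas without IP 1 there were 3796 and 3455. Without the whole of pair 2 there were 0 enriched and 29 depleted features by the same edgeR test, with 2974 features at an unadjusted p below 0.05. Of the 2692 enriched features, 2691 stayed above 0 without IP 2. All 2692 did without pair 2, and 1678 stayed above a log2 fold change of 1 there, with a median of 1.12. Scaling by library size alone, which moved the median of all features to 0.45, gave 5127 enriched and 932 depleted features, so enriched features made up 84.6% of the calls instead of 54.6%. The directions below are therefore given relative to the typical feature.

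Many of the most strongly enriched transcripts came from genes with few exons. Of the 20 with the largest change among features with a mean of at least 50 normalised counts, 10 had a single exon in the annotation and 6 had 2. Oxct2a, a ketone body enzyme of the testis, led with 11.7 and 16.8 in the inputs and 50.5 and 226 in the IPs (log2 fold change 3.30 ± 0.77 SE, adjusted p = 0.013, edgeR). The single-exon gene Tbcc, a tubulin folding cofactor, stood at 35.0 and 35.8 in the inputs and 163 and 365 in the IPs (log2 fold change 2.89 ± 0.47 SE, adjusted p = 0.00565). Both IPs lay above both inputs for these genes by the rule that named them, and the second IP was the higher in each. Tmem121 (log2 fold change 3.17 ± 0.60), Spaca4, an acrosome membrane protein (3.09 ± 0.96), Bloc1s4, a subunit of an organelle biogenesis complex (3.07 ± 0.53), Tagap, a GTPase activating protein (2.98 ± 0.67), and Hps6 (2.87 ± 0.72) followed on the same scale. Lsm10, a subunit of the U7 snRNP, had 2.84 ± 0.59, the mitochondrial ribosomal protein gene Mrpl41 2.82 ± 0.52, and Eid2, Sertad1 and AI467606 2.81 ± 0.63, 2.80 ± 0.58 and 2.78 ± 0.52. Transcription factors were among them. Myc stood at 21.5 and 56.8 in the inputs and 97.7 and 416 in the IPs, Foxd3, a factor of the naive state and neural crest, at 35.9 and 73.7 in the inputs and 167 and 613 in the IPs, and Gbx2, a homeobox factor of ES cell self-renewal, at 65.5 and 116 in the inputs and 295 and 1004 in the IPs. Their log2 fold changes were 2.80 ± 0.68, 2.88 ± 0.58 and 2.87 ± 0.53 SE. Of the remaining named genes, Gm27937 lies on the same strand within Tug1, Ccdc85b lies across from Fosl1, Gm11175 across from Jund, and Pcdhga5 shares exons with the protocadherin gamma cluster, so their reads cannot be given to 1 gene with certainty.

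**Figure D1:**
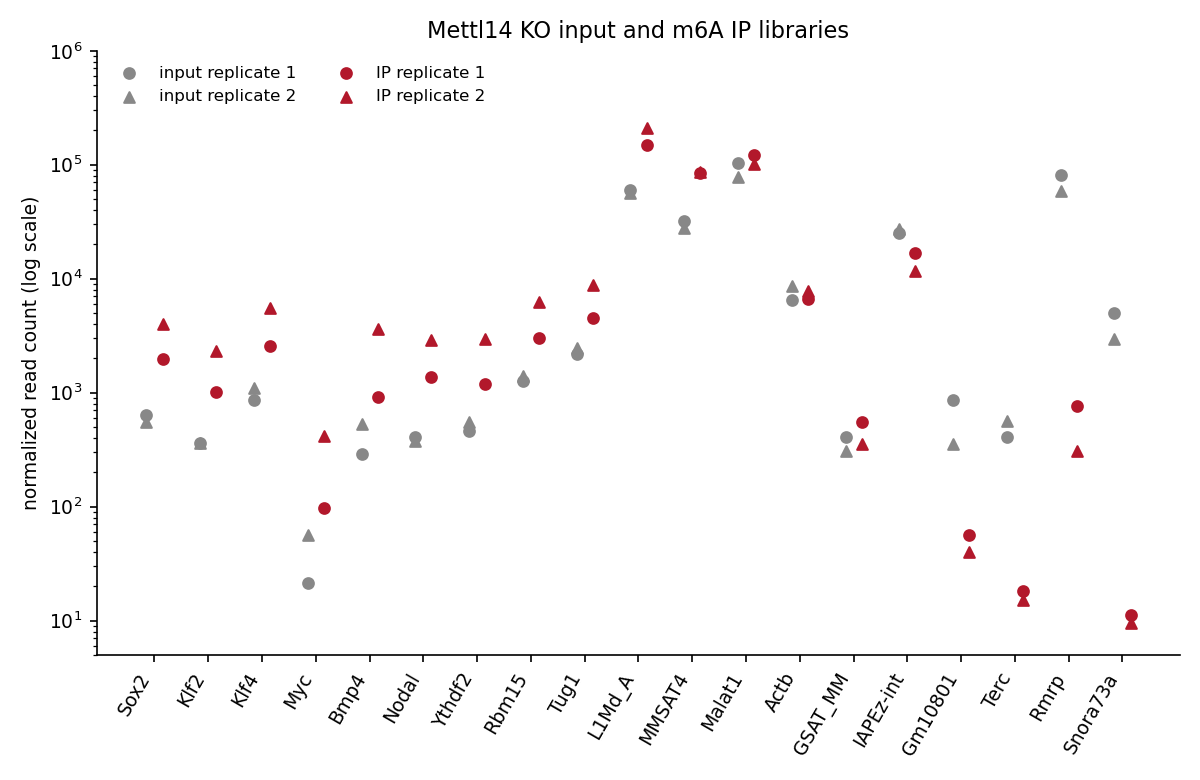
Normalised counts on a log axis of 19 named features in the 2 inputs and 2 IPs of the Mettl14 KO, 1 point for each library. Enriched genes such as Sox2 have both IP points above both input points, with IP 2 the higher, and depleted RNAs such as Rmrp have both IP points far below.

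Across protein-coding genes the enrichment in the knockout went with the number of exons. Of all 14799 tested 15.5% were enriched and 4.14% depleted, beside 11.9% and 9.91% of all features. Among 565 single-exon genes tested, 218 were enriched (38.6%), and among 796 genes with 2 exons 321 were (40.3%), with median log2 fold changes of 1.33 and 1.23. The share was 33.1% of 2154 genes with 3 or 4 exons, 20.1% of 2064 with 5 or 6, 12.3% of 1737 with 7 or 8 and 8.13% of 2176 with 9 to 11. Of 5307 genes with 12 or more exons, 237 were enriched (4.47%) and 359 were depleted (6.76%), and the median was -0.14, which turned to 0.28 under library size scaling. Without the replication-dependent histone genes, which are short and intronless, 212 of 507 single-exon genes were enriched (median 1.46). With genes near 0 counts set at their bound, the single-exon median was 1.21. WT26 showed the same order of medians, from 1.48 for single-exon genes to -0.15 for 12 or more. The Spearman correlation of exon number with log2 fold change over 14799 genes was -0.42 in the Mettl14 KO, -0.44 in WT26, -0.44 in RBC and -0.37 in the Mettl3 KO. These are descriptions across genes that share the same libraries.

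**Figure D2:**
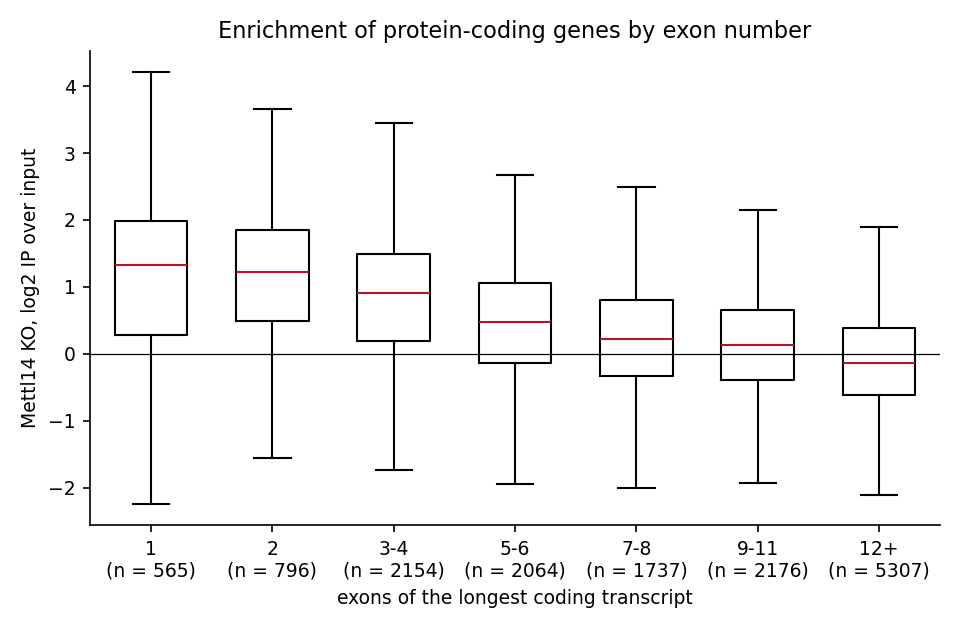
Log2 fold change of IP over input in the Mettl14 KO for protein-coding genes grouped by exon number, with boxes at the quartiles, lines at the medians and whiskers to 1.5 times the interquartile range. The medians go down from 1.33 for 1 exon to -0.14 for 12 or more.

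The transcripts of the 2294 enriched and 613 depleted protein-coding genes differed in other features too, again as a description. The enriched genes had a median of 4 exons against 13, where all genes tested had 9, and their longest exon was 1978 bases against 1570, with 1478 over all. Their transcripts were the shorter ones, with medians of 2996 and 3701 bases. GC content was 52.3% in the enriched and 46.8% in the depleted set, and GGAC occurred 4.43 and 3.42 times per kilobase, against 4.18 over all. The rank correlation of GGAC per kilobase with log2 fold change was 0.14 over the 14799 genes. For the broader m6A consensus (A, G or T, then A or G, then AC, then A, C or T) the medians were 20.1 per kilobase in the enriched, 19.7 in the depleted and 20.1 in all genes, and the rank correlation was 0.000168 in the Mettl14 KO and -0.00644 in WT26.

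KRAB and other zinc finger genes named Zfp were the gene group with the largest share of enriched members. Of 371 tested 231 were enriched (62.3%) and 2 depleted (0.539%), beside 11.9% and 9.91% of all features and 15.5% and 4.14% of protein-coding genes. Their median log2 fold change was 1.31. Many of them repress retrotransposons, and nearly all carry their zinc fingers in a single long last exon. In WT26 260 of the same 371 were enriched, with a median of 1.42. Zfp551 stood at 17.9 and 14.7 in the inputs and 79.3 and 183 in the IPs (log2 fold change 2.95 ± 0.65 SE, adjusted p = 0.0109, edgeR) and Zfp691 at 14.3 and 10.5 in the inputs and 45.9 and 103 in the IPs (log2 fold change 2.49 ± 0.54 SE, adjusted p = 0.0106). Zfp853 (log2 fold change 3.26 ± 0.91) and Zfp503 (3.26 ± 1.14) were called on input counts between 0 and 3.59, and Zfp503 was not called with each input and IP pair as a block (adjusted p = 0.0551). Without IP 2 the group kept 1 call, and its median was 0.97.

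Of 28 pluripotency genes 11 were enriched (39.3%) and 2 depleted (7.14%), with a median of 0.97. All features had 11.9% and 9.91%, and protein-coding genes 15.5% and 4.14%. The core factor gene Sox2 stood at 639 and 551 in the inputs and 1987 and 4016 in the IPs (log2 fold change 2.33 ± 0.43 SE, adjusted p = 0.00745, edgeR), and its window is among those printed above. The KLF factors of the naive state were enriched as well. Klf2 had 362 and 359.9 in the inputs and 1011 and 2317 in the IPs, and Klf4 867 and 1105 in the inputs and 2550.2 and 5531 in the IPs (log2 fold changes 2.20 ± 0.51 and 2.04 ± 0.53 SE). Klf5 (1.52 ± 0.29), the MYC family gene Mycn (2.11 ± 0.47), the nuclear receptor Nr0b1 (1.69 ± 0.36), Zfp42, which encodes REX1 (1.31 ± 0.28), Sall4 (1.29 ± 0.39), the NODAL co-receptor gene Tdgf1 (1.18 ± 0.31) and Tbx3 (1.11 ± 0.37) completed the enriched members besides Myc. Tdgf1 was not called in an edgeR fit of the Mettl14 KO libraries alone (adjusted p = 0.0515). For Nanog, the log2 fold change was 0.97 ± 0.32 with an adjusted p of 0.0409, under the size limit. Pou5f1, which encodes OCT4, stood at 869.8 and 966 in the inputs and 1126 and 1185 in the IPs (log2 fold change 0.33 ± 0.22 SE, adjusted p = 0.268), so its groups did not overlap but it was not called. Tfcp2l1 (-1.34 ± 0.31) and Stat3 (-1.15 ± 0.30), the transducer of LIF, were depleted, and neither was called under library size scaling (-0.90 and -0.72). In WT26 12 of the 28 were enriched.

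Of 41 genes of signalling and growth pathways tested, 15 were enriched (36.6%) and 0 depleted. All features had 11.9% and 9.91%, and protein-coding genes 15.5% and 4.14%. The median was 0.66, and 18 of the 41 reached an adjusted p of at most 0.05 without the size limit (edgeR). The ligand genes led. Bmp4 stood at 288 and 530.4 in the inputs and 913 and 3618 in the IPs, and Nodal at 405 and 375 in the inputs and 1371 and 2922 in the IPs (log2 fold change 2.46 ± 0.38 SE, adjusted p = 0.00443, edgeR), with both IPs above both inputs. The FGF feedback inhibitors Spry2 and Spry4 had log2 fold changes of 2.17 ± 0.37 and 1.40 ± 0.44, the ligand Fgf4 1.45 ± 0.37 and the MAP kinase phosphatase Dusp6 1.598 ± 0.37. Inhibitors of other pathways were also among the members, with Socs3 of the LIF pathway at 1.95 ± 0.63, Smad7 of the TGF-beta pathway at 1.91 ± 0.52 and Axin2 of the WNT pathway at 1.78 ± 0.51. The insulin receptor substrate Irs2 had 1.95 ± 0.46 and the WNT receptor Fzd7 1.603 ± 0.33. Among the members that were not called, the kinase Mtor had -0.70 ± 0.28 (adjusted p = 0.0812), the receptor Fgfr1 -0.46 ± 0.20 (adjusted p = 0.0954) and the LIF co-receptor Il6st 0.99 ± 0.32 (adjusted p = 0.0379). In WT26 17 of the 41 were enriched.

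Chromatin regulators had 11 enriched (23.9%) and 0 depleted of 46, beside 11.9% and 9.91% of all features and 15.5% and 4.14% of protein-coding genes. The median was 0.55, and 18 had an adjusted p of at most 0.05 without the size limit (edgeR). Asxl1, a Polycomb deubiquitinase subunit, stood at 1570.2 and 1677 in the inputs and 3164 and 6970.0 in the IPs (log2 fold change 1.64 ± 0.44 SE, adjusted p = 0.0188, edgeR). The H3K36 methyltransferase genes Setd2 (1.47 ± 0.32), Ash1l (1.34 ± 0.36) and Nsd1 (1.12 ± 0.38) and the BAF subunit gene Arid1a (1.29 ± 0.36) were enriched although they have 20 or more exons. In an edgeR fit of the Mettl14 KO libraries alone Nsd1 was not called (adjusted p = 0.0709). Subunits of PRC2 were not called, with Ezh2 at -0.88 ± 0.42, Eed at -0.54 ± 0.29 and Suz12 at 0.15 ± 0.30.

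The transcripts of the m6A machinery itself were mixed, with a median of 0.21. Of 25 tested 6 were enriched (24.0%) and 2 depleted (8.0%), beside 11.9% and 9.91% of all features and 15.5% and 4.14% of protein-coding genes. Readers and adaptors were the enriched members. Ythdf2, the reader that speeds decay, stood at 459 and 558 in the inputs and 1181 and 2939.9 in the IPs (log2 fold change 2.02 ± 0.50 SE, adjusted p = 0.0146, edgeR). Ythdf1 and Ythdf3 had log2 fold changes of 1.65 ± 0.45 and 1.43 ± 0.44, and the writer adaptors Rbm15, Rbm15b and Zc3h13 1.81 ± 0.49, 1.81 ± 0.46 and 1.39 ± 0.24. Igf2bp1, an RNA-binding protein also described as an m6A reader, was depleted at 3178 and 4173 in the inputs and 1716 and 1558 in the IPs (log2 fold change -1.17 ± 0.28). The other depleted member was Ythdc2, a helicase of the same reader family (-1.64 ± 0.42). Under library size scaling Igf2bp1 was not called (-0.74, adjusted p = 0.065). The Mettl3 transcript was not called (0.18 ± 0.23, adjusted p = 0.566), nor was that of Mettl14 (-0.77 ± 0.28, adjusted p = 0.0575). In WT26 8 of the 25 were enriched. Mat2a, whose hairpins are methylated by METTL16 rather than by the METTL3 complex, was the only member tested of a list of 6 RNAs modified by other enzymes. It stood at 5077 and 4678 in the inputs and 4396 and 4691 in the IPs (log2 fold change -0.10 ± 0.27 SE, adjusted p = 0.794), and the groups overlapped.

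Small structured RNAs made up the other end. Of 406 snoRNA genes 219 were depleted (53.9%, beside 9.91% of all features) and 1 enriched. Their median log2 fold change was -1.93 (-1.77 with genes near 0 at their bound). Snora73a, which lies within Snhg3, stood at 4991 and 2951 in the inputs and 11.1 and 9.58 in the IPs (log2 fold change -8.54 ± 0.92 SE, adjusted p = 0.0004, edgeR). The U3 snoRNA gene Rnu3a, which the table lists under more than 1 identifier, stood at 4218 and 2138 in the inputs and 5.9 and 0 in the IPs. Gm22422 was at 0 in both IPs against 341 and 84.2 in the inputs, at least 70.0-fold lower against a floor of 3 counts in each IP library. Of 191 snRNA genes 38 were depleted (19.9%) and 3 enriched (median -1.59, or -1.30 at the bounds). The spliceosomal U1 gene Rnu1b1 was among the depleted, at 505 and 154 in the inputs and 2.62 and 1.37 in the IPs. Of 22 genes of rRNA type 3 were depleted, 13.6% beside the 9.91% of all features, and 0 enriched (median -1.28, or -1.16 at the bounds). The 3 fell to 2 with each input and IP pair as a block and under library size scaling, and all were 5S copies with input counts of at most 21.05. Near-identical copies share reads in all these families, so counts of single copies are uncertain.

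Of 24 nuclear or well-studied non-coding RNAs, 7 were depleted (29.2%) and 2 enriched (8.33%), beside 9.91% and 11.9% of all features (median -0.70). Rmrp, the RNA of the RNase MRP complex, had 80859 and 58613 in the inputs and 764 and 311 in the IPs (ENSMUSG00000088088, chr4:43492788-43493058, GRCm38). That was a log2 fold change of -7.01 ± 0.62 SE at an adjusted p of 0.000104 (edgeR). Rpph1, the RNA of RNase P, had 51815 and 74662 in the inputs and 1347 and 988 in the IPs, and the telomerase RNA Terc 411 and 562 in the inputs and 18.4 and 15.0 in the IPs. Rn7sk, which holds the elongation factor P-TEFb in check, had 58630.5 and 75967 in the inputs and 6322 and 1237 in the IPs. Each of these had both IPs below both inputs, with IP 2 the lower. The Y RNA genes Rny1 (-5.29 ± 1.53) and Rny3 (-5.67 ± 1.71), bound by the Ro protein, rested on 6.31 to 84.3 normalised counts in the inputs and lost their calls without IP 1, and Snhg12 (-1.42 ± 0.29) was the remaining depleted member. The enriched ones were Tug1 at 2168 and 2469 in the inputs and 4494 and 8781 in the IPs (log2 fold change 1.52 ± 0.43 SE, adjusted p = 0.0235) and Peg13 at 77.1 and 88.4 in the inputs and 159 and 399 in the IPs (log2 fold change 1.75 ± 0.57 SE, adjusted p = 0.0375). Malat1, an abundant speckle RNA, stood at 103227 and 77901 in the inputs and 122635 and 102496 in the IPs and was not called (log2 fold change 0.31 ± 0.29 SE, adjusted p = 0.435). Xist (-0.69 ± 0.34, adjusted p = 0.136) and Neat1 (-0.04 ± 0.26, adjusted p = 0.92) were not called either.

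Of 63 replication-dependent histone genes, intronless and without a poly(A) tail, 11 were depleted (17.5%) and 6 enriched (9.52%), beside 9.91% and 11.9% of all features. The median of -0.27 turned to 0.18 under library size scaling, where 9 were depleted and 15 enriched. Without IP 1 the median was -0.58 and without IP 2 it was 0.04. The H4 gene Hist1h4h stood at 857 and 1684 in the inputs and 28.2 and 19.2 in the IPs (log2 fold change -5.69 ± 0.61 SE, adjusted p = 0.0004, edgeR), with Hist1h4n (-4.999 ± 0.56), Hist1h4c (-3.55 ± 0.51) and Hist4h4 (-3.50 ± 0.44) also depleted. Ribosomal protein genes had 3 enriched (3.57%) and 1 depleted (1.19%) of 84, both below the shares of all features (median 0.22). Their median was -0.14 without IP 1 and 0.45 without IP 2. The enriched ones were Rpl10l (1.77 ± 0.49) and Rpl36al (1.75 ± 0.38), both single-exon genes, and Rpl36 (1.16 ± 0.25). Splicing factors had 1 enriched and 3 depleted of 38 (median -0.57). That was 7.89% depleted, under the 9.91% of all features but above the 4.14% of protein-coding genes. The enriched member was Son, a speckle scaffold (1.36 ± 0.37), and the depleted ones were Tra2b (-1.31 ± 0.41), Srsf3 (-1.27 ± 0.30) and Prpf8 (-1.20 ± 0.36). Tra2b was not called with each input and IP pair as a block (adjusted p = 0.0588), and library size scaling left 0 depleted and 3 enriched (median -0.14). Of 20 housekeeping genes 0 were called in either direction in the unpaired edgeR fit, with 4 at an adjusted p of at most 0.05 without the size limit and a median of 0.01, which moved to 0.43 under library size scaling. That scaling gave 4 enriched and 0 depleted, and with each input and IP pair as a block Tbp was depleted (log2 fold change -1.05, adjusted p = 0.0353). Actb had 6452 and 8633 in the inputs and 6690.1 and 7885 in the IPs, so its groups overlapped. Of 29 mitochondrial genes 1 was enriched, 3.45% beside the 11.9% of all features, and 0 depleted. The enriched gene was mt-Ts1 (1.83 ± 0.55), a tRNA that lies across from mt-Co1. The mitochondrial median of -0.15 turned to 0.29 under library size scaling. It was -1.77 without IP 1 and 0.60 without IP 2, so the IPs differed in direction. With each input and IP pair as a block it was -0.58, with 2 enriched.

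**Figure D3:**
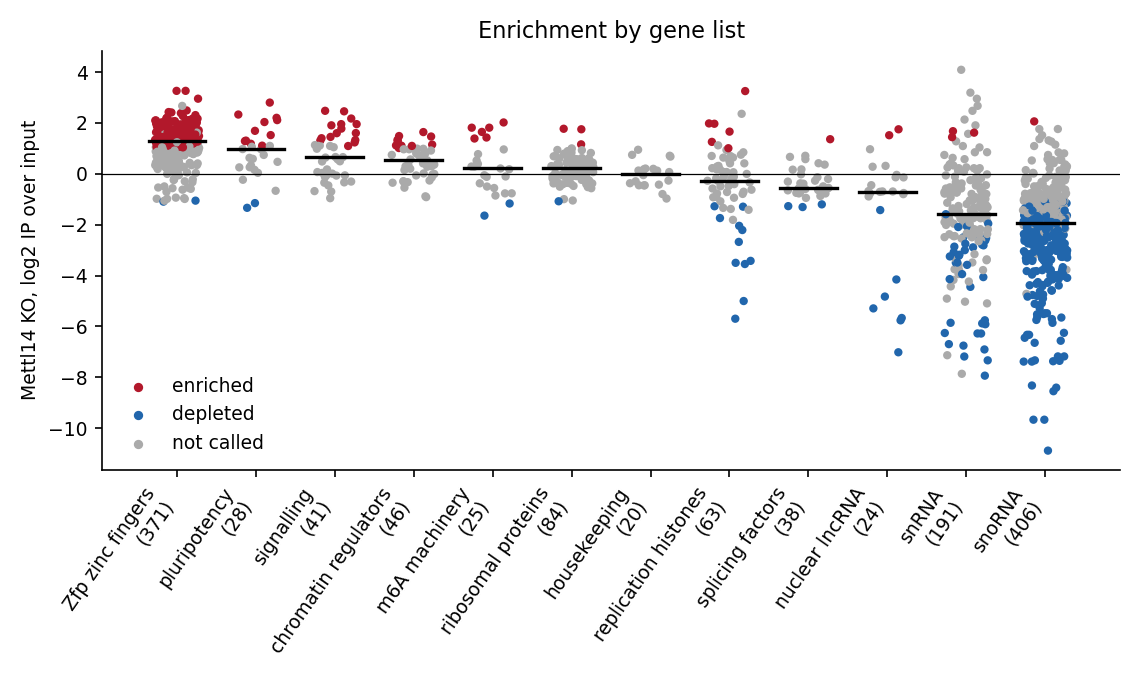
Log2 fold change of IP over input in the Mettl14 KO for each member of the gene lists, 1 point per gene, with a bar at the median of each list, enriched members in red, depleted in blue and the rest in grey. Zinc finger genes sit highest with a median of 1.31, housekeeping genes near 0 with a median of 0.01, and snoRNA genes lowest with a median of -1.93.

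Few repeat subfamilies were enriched in the IP of the knockout. Of 1097 repeat subfamilies tested 473 were depleted (43.1%) and 9 enriched (0.82%), beside 9.91% and 11.9% of all features. Their median log2 fold change was -1.10 against -1.29 in WT26. DNA transposons had 149 of 195 depleted and 0 enriched (median -1.50), SINEs 25 of 35 and 0 (-1.33), LTR elements 204 of 642 and 4 (-0.98) and LINEs 60 of 157 and 4 (-0.98). Library size scaling left 129 of 1094 subfamilies depleted and 21 enriched, with a median of -0.66. There DNA transposons had 60 depleted, SINEs 3, LTR elements 45 with 12 enriched and LINEs 8 with 7 enriched. Without IP 2 only 1 subfamily was depleted and 0 were enriched, though the repeat median stayed at -0.77. As a share of each library's counts, SINEs made up 18.3% and 19.5% of the inputs and 14.4% and 7.79% of the IPs. LINEs, by contrast, made up 8.55% and 8.23% of the inputs and 11.9% and 10.9% of the IPs, and satellites 0.338% and 0.251% against 0.800% and 0.685%. The TEtranscripts counts share reads between copies and subfamilies, so a subfamily's value is an estimate.

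The enriched subfamilies were LINE elements of the L1Md group, a few LTR elements and a satellite. L1Md_Gf stood at 6718 and 5291 in the inputs and 18247 and 27511 in the IPs (log2 fold change 1.93 ± 0.41 SE, adjusted p = 0.0102, edgeR). L1Md_T had 101846 and 99635 in the inputs and 244509 and 395395 in the IPs, and L1Md_A 59469 and 56190.2 in the inputs and 149899 and 209816 in the IPs (log2 fold changes 1.67 ± 0.47 and 1.64 ± 0.41 SE). These L1 families of the mouse include full-length, still mobile copies, but the counts pool every copy of a subfamily. All 3 had both IPs above both inputs. L1Md_F (1.13 ± 0.34) was enriched too, while L1VL1, at 5788 and 4975 in the inputs and 8261 and 8566 in the IPs, was not called (log2 fold change 0.64 ± 0.28 SE, adjusted p = 0.102). Among LTR elements RNERVK23-int stood at 123 and 187 in the inputs and 286 and 821 in the IPs (log2 fold change 1.84 ± 0.56 SE, adjusted p = 0.0293) and ORR1A0-int at 4025 and 3919 in the inputs and 8157 and 16881 in the IPs (log2 fold change 1.66 ± 0.40 SE, adjusted p = 0.0136), with MER89 (1.18 ± 0.39) and MTA_Mm-int (1.05 ± 0.35) closer to the limit. The call of MTA_Mm-int was lost with each input and IP pair as a block (adjusted p = 0.0624). IAPEz-int, the internal part of the intracisternal A particle, stood at 24985 and 27318 in the inputs and 16781 and 11768 in the IPs (log2 fold change -0.87 ± 0.28, adjusted p = 0.0339), lower in both IPs but within the size limit. IAPEy-int had -0.84 ± 0.42 (adjusted p = 0.149). Without IP 1 both were called depleted, at -1.15 and -1.67. The 7SK repeat family went with its gene Rn7sk, at 22388 and 19126 in the inputs and 2590.2 and 506 in the IPs.

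Satellites split. MMSAT4 stood at 32166 and 27785 in the inputs and 84263 and 87146 in the IPs (log2 fold change 1.52 ± 0.31 SE, adjusted p = 0.00952, edgeR), an enrichment in both pairs. The major satellite GSAT_MM, the repeat of pericentromeric heterochromatin, stood at 408 and 309 in the inputs and 551 and 356 in the IPs (log2 fold change 0.34 ± 0.75 SE, adjusted p = 0.758), and only IP 1 lay above both inputs. In WT26 it had 1795 and 579.9 in the inputs and 5834 and 2530.5 in the IPs, a log2 fold change of 1.81 ± 0.75 SE at an adjusted p of 0.0759, so it was not called in either line. The minor satellite SYNREP_MM was depleted in the knockout, at 10842 and 3136 in the inputs and 355 and 78.0 in the IPs (log2 fold change -4.99 ± 0.75 SE, adjusted p = 0.00379), where the WT26 inputs held 199.6 and 447. The LTR element RMER3D4 was at 0 in both IPs against 11.7 and 18.9 in the inputs, at least 5.04-fold lower against a floor of 3 counts in each IP library.

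**Figure D4:**
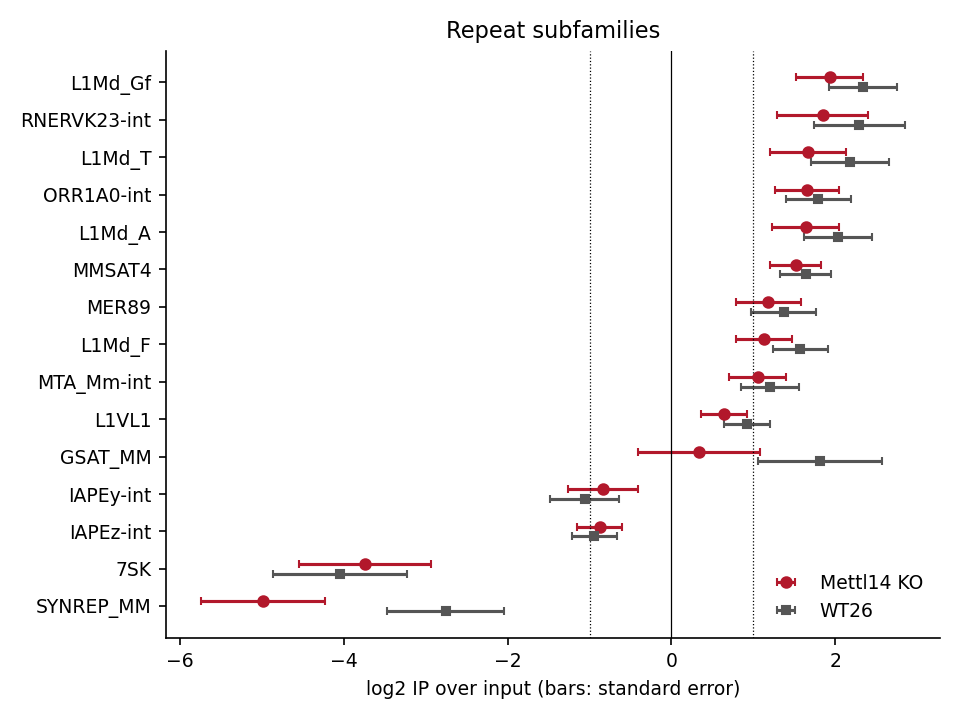
Log2 fold change of IP over input with its standard error for named repeat subfamilies in the Mettl14 KO and WT26, with dotted lines at 1 and -1. L1Md_Gf, L1Md_T and L1Md_A lie above 1 in both lines, and GSAT_MM lies at 0.34 in the knockout and 1.81 in WT26.

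The enriched set overlapped widely with those of the control lines. WT26 had 3272 enriched features (14.5% of those tested) and RBC 3030 (13.4%). Of the 2692 features enriched in the knockout, 2361 were also enriched in WT26, which is 87.7% of the knockout's set and 72.2% of the WT26 set. With RBC the shared features were 2258, or 83.9% and 74.5%. Almost all of the remainder had the same direction, since 2690 of the 2692 were above 0 in WT26 and 2686 in RBC. The 2 that were not, named after their values were seen, were Rhox2a and Tcte3, with normalised counts of at most 21.6 in any knockout library. The 331 features enriched in the knockout and not in WT26 had medians of 1.42 and 0.96, and the 911 enriched in WT26 and not in the knockout 0.997 and 1.42.

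The difference itself was then tested, as the change of IP over input in the knockout minus that in WT26. No feature passed an adjusted p of 0.05 in either direction by edgeR (0 of 22621, 0.0%). At an unadjusted p below 0.05 there were 126, 68 of them lower and 58 higher in the knockout, 0.557% of all tested, and the smallest adjusted p was 0.99998. By DESeq2 the count was 1, with 79 at an unadjusted p below 0.05. The 0.557% by edgeR is far below a share of 0.05, which evenly spread p-values would give. That fit treated input and IP of 1 number as independent, although they were split from the same RNA. With each pair as a block in edgeR 1 feature was called, with 155 at an unadjusted p below 0.05. What share of real differences the edgeR test of the difference would find in these libraries was not tested. A p that misses the limit in a design with n = 2 does not show that the lines were alike, and the standard errors show the room left. For Sox2 the difference was 0.36 ± 0.58 SE, for Nodal 0.11 ± 0.51, for Bmp4 0.20 ± 0.77, for Klf4 -0.04 ± 0.72 and for Ythdf2 0.16 ± 0.67 on the log2 scale. Among features enriched in the knockout with a mean of at least 50 normalised counts and both IPs above both inputs, those furthest above WT26 were Tmem121 (1.28 ± 0.83), Gucy1a2 (1.19 ± 0.73), Myh3 (1.03 ± 0.71), Arl4d (0.99 ± 0.78) and Oxct2a (0.99 ± 0.999). Features outside these limits reached up to 10.3 (Tcte3), a fitted value on few counts. Furthest below, under the same limits, were Gm904 (-1.44 ± 1.263), Mterf1b (-1.27 ± 0.77), Rassf10 (-1.07 ± 0.87), Pgp (-0.96 ± 0.53) and Nxt1 (-0.90 ± 0.65), none of them past the test. With each input and IP pair as a block, Rassf10 and Pgp were no longer enriched in the knockout (adjusted p = 0.0692 and 0.0586). All 18 repeat subfamilies enriched in WT26 had a smaller log2 fold change in the knockout, by 0.12 to 0.75, and 9 of them were enriched there, but no difference passed the test. For L1Md_A it was -0.40 ± 0.57, for L1Md_Gf -0.40 ± 0.56 and for GSAT_MM -1.48 ± 1.05 SE. Because the subfamilies were chosen for being high in WT26, that direction carries no weight as a test.

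**Figure D5:**
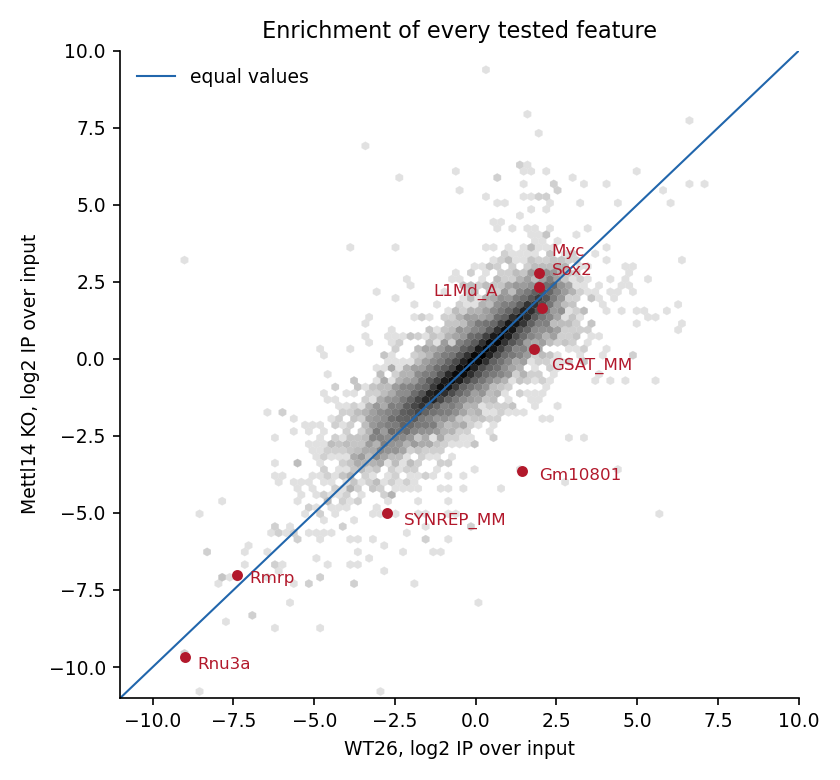
Log2 fold change of IP over input in the Mettl14 KO against that in WT26 for the 22621 features tested, with darker hexagons for more features, a line of equal values and 8 named features. Most features lie near the line, and Gm10801 lies far below it at -3.65 in the knockout and 1.43 in WT26.

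Gm10801, a satellite-like gene on chromosome 2 (ENSMUSG00000075015, chr2:98662237-98664083, GRCm38), was the only feature whose difference from WT26 was called by DESeq2 or with each input and IP pair as a block. It stood at 872 and 356 in the inputs and 57.0 and 39.7 in the IPs in the knockout (log2 fold change -3.65 ± 0.66 SE, adjusted p = 0.0072, edgeR), against 112 and 75.7 in the inputs and 339 and 173 in the IPs in WT26 (log2 fold change 1.43 ± 0.61). The difference of -5.08 ± 0.89 had an adjusted p of 1 in the fit without pairing, 0.00668 with the block and 8.62e-05 by DESeq2. Its RNA was higher in the knockout in the RNA-seq, with 1879 and 1825 against 75.1 and 60.1 normalised counts (log2 fold change 4.76 ± 0.11). The input was higher in the knockout too, and whether the difference in IP follows the different RNA level was not tested. The related gene Gm10800 stood at 269 and 238 in the inputs and 436 and 512 in the IPs in the knockout (log2 fold change 0.90 ± 0.63 SE, adjusted p = 0.294) and was enriched in WT26 (log2 fold change 2.05 ± 0.63). Of 8 satellite-like genes tested 1 was depleted (12.5%, near the 9.91% of all features) and 0 enriched. Without the size limit 1 had an adjusted p of at most 0.05 (edgeR). The median was 0.53, or 0.08 with genes near 0 at their bound, and the other 5 of 13 listed did not enter the test. These genes share sequence, so their reads may be split among them.

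A comparison that did not choose the features by the knockout or its parent used the 3030 features enriched in RBC. Of these 2258 were called in the Mettl14 KO (74.5%), 2587 in WT26 (85.4%) and 352 in the Mettl3 KO (11.6%). The 3030 features had a median log2 fold change of 1.46 in the Mettl14 KO, 1.52 in WT26 and 0.93 in the Mettl3 KO. By pair, the medians were 1.04 and 1.82 in the Mettl14 KO, 1.08 and 1.88 in WT26 and 0.60 and 1.19 in the Mettl3 KO. The order of the lines was thus the same in both pairs, and the distance between pairs within a line was larger than that between the Mettl14 KO and WT26. RBC is the control line of the Mettl3 KO.

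Against the other knockout of the writer complex, the Mettl14 KO had more calls. The Mettl3 KO had 575 enriched features (2.54% of those tested), of which 364 were enriched in both, 13.5% of the Mettl14 KO set and 63.3% of the Mettl3 KO set. The 2692 features enriched in the Mettl14 KO had a median of 1.56 there and 0.97 in the Mettl3 KO, and 2645 of them were above 0 in the latter. The features were chosen for being high in the Mettl14 KO, so these medians are a description. In the test of the difference 0 of 22621 features passed (0.0%, edgeR), with 573 at an unadjusted p below 0.05, 380 higher and 193 lower in the Mettl14 KO, or 2.53%, and the smallest adjusted p was 0.911. DESeq2 also called 0, with 510 at an unadjusted p below 0.05. Under the same limits on counts, the largest differences among enriched genes were those of Spaca4 (2.23 ± 1.31), Tst (2.22 ± 0.75) and Trp53rka (1.85 ± 0.64), which were higher in the Mettl14 KO without passing the test. Klf4 had 2.04 in the Mettl14 KO and 1.12 in the Mettl3 KO, and L1Md_A 1.64 and 0.60. MMSAT4 stood at 1.52 and 1.27, and Bloc1s4 at 3.07 and 2.74. The differences from WT26 and from the Mettl3 KO share the Mettl14 KO libraries.

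The RNA-seq, from separate libraries, gave the RNA level of the enriched genes in the knockout against WT26. In bulk samples fewer cells that express a gene and less RNA per cell cannot be told apart. Over 17021 genes 1353 were higher (7.95%) and 1118 lower (6.57%) in the Mettl14 KO under the same limits (edgeR). Of the 2683 genes enriched in the IP, 2437 were tested in the RNA-seq, and 90 of these were higher (3.69%) and 185 lower (7.59%), with a median log2 fold change of -0.12. Of the 1768 depleted genes 1094 were tested, with 52 higher (4.75%) and 20 lower (1.83%) and a median of 0.09. Over all 16751 genes tested in both assays, 7.77% were higher and 6.50% lower. Mettl14 itself was lower by less than the size limit (log2 fold change -0.31 ± 0.09, adjusted p = 0.00609), with 296 and 316 against 401 and 358 normalised counts, and Mettl3 was higher, also under the limit (log2 fold change 0.41 ± 0.07, adjusted p = 0.000112). Gm904, an enriched gene furthest below WT26 in the IP, had 44.1 and 36.0 normalised counts in the knockout RNA-seq and 0 in both WT26 libraries, and its WT26 inputs held 1.57 and 0 normalised counts.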

How the data were processed

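Per the labels, adapters were trimmed by the authors with cutadapt 1.8.1 and reads aligned to GRCm38 with STAR 2.6.0c. Per the study's methods, reads at up to 100 positions were kept and TEtranscripts assigned them to genes and RepeatMasker subfamilies in its multi mode. The strand setting is not given in the sources used here, so overlapping genes on either strand are uncertain. The deposited values are raw counts per gene or subfamily, not normalised.

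The counts were scaled with DESeq2 1.42.0 size factors, filtered with filterByExpr and fitted with edgeR 4.0.16 (R 4.3.3), quasi-likelihood, over all 16 MeRIP-seq libraries in 8 groups, with Benjamini-Hochberg adjustment over 22621 of 49090 features. RNA-seq (11321459 to 13743181 counts per library) was fitted apart over 17021 genes. With 2 replicates a group an exact permutation test cannot reach a p of 0.05, so single features have only the fit across all features. Fold floors used 3 counts in each library and cover counting error only. Gene models were GENCODE M21, matched for 47310 genes. Replicate libraries of a group differed beyond sampling noise. The members, gene lists and tests were chosen with earlier results of these data known. Named were the 20 largest enriched and 8 largest depleted features at a mean of at least 50 normalised counts with groups that did not overlap, up to 15 repeats in each direction and those the study names, up to 4 called members of each list, and, among enriched features with the same mean and both IPs above both inputs, the 5 largest differences from WT26 and Mettl3 KO in each direction. Not every feature the rule allows is described. Input and IP of 1 number were split from the same RNA, and their deviations correlated in every line (r = 0.20, 0.29, 0.22 and 0.24 in the Mettl14 KO, Mettl3 KO, RBC and WT26). Steps were tested on simulated data with Python 3.11.15 and R.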

Additional observations from a re-analysis of the deposited data

How the results depend on the processing

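Every one of the features enriched in the Mettl14 KO that kept a value stayed above 0 under each alternative, except 1 of 2692 without IP 2. These features were chosen with the same libraries, so that direction is a description. The counts of calls were less steady. For IP over input in the Mettl14 KO, DESeq2 gave 2906 enriched and 2350 depleted features, TMM factors 2851 and 2002, no filter 3221 and 2872, adjusted p alone 3054 and 2724, and only the libraries compared 2525 and 1989. The replicate block, with each input and IP pair as a block, gave 2579 and 2149. Library size alone gave 5127 and 932, and at least 10 counts in every Mettl14 KO library 2348 and 1435. Leaving out 1 library or 1 pair gave 0 to 3796 enriched and 29 to 3455 depleted features. Leaving out a pair was chosen after seeing the data, and a lone library was taken to vary like the other groups. For the change against WT26, no filter gave 18 higher and 6 lower features, DESeq2 0 and 1 and the replicate block 0 and 1, the 1 being Gm10801. The other alternatives, leaving out each library or pair included, gave 0 in both directions. For the change against the Mettl3 KO, no filter gave 2 higher and 14 lower, and the others 0. The call rule of these differences is already adjusted p alone. For RNA-seq, adjusted p alone gave 4336 higher and 4594 lower, DESeq2 974 and 840, and leaving out a replicate 1212 to 1215 and 994 to 1025. Among 322 features examined one by one for IP over input, the replicate block ended 6 calls (MTA_Mm-int, Pgp, Rassf10, Zfp503, Tra2b and n-R5s15) and added 2 (Lefty1 and Tbp), whereas library size alone ended 9 and added 32. Of the 312 with a value in the fit of only the libraries compared, 6 lost their call (Brd2, Gm15550, MTA_Mm-int, Nsd1, Setd1b and Tdgf1). That fit added 2 calls, Lefty1 and Smad1. The cause of these differences was not tested beyond the number of libraries and features each setting leaves. The depth of the smallest library, 9394163 counts, limits what can be seen for genes of low count.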
